A study of Gasterosteus aculeatus with 31 samples.

Results

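The stretch of the sex chromosome described here is the set of accessible sites, or peaks, on linkage group XIX (groupXIX) of the threespine stickleback (Gasterosteus aculeatus) that start from 2 Mb up to 4 Mb, where the male to female count ratio changes. It held 369 of the 102149 peaks in the deposited table and of the 4391 peaks on groupXIX. The interval was chosen by the male to female ratio measured in these same libraries, so every value by sex below is a description and supports nothing beyond itself. Paternal care and brain side were not used to choose it, and they are tested. Of the 369 peaks, 356 passed the filter on low counts, and the other 13 averaged 0.439 to 1.57 CPM, counts scaled to library size.

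Stickleback males carry 1 X and 1 Y chromosome and females carry 2 X chromosomes, and groupXIX is this pair. At one end the X and Y still exchange sequence in meiosis, in the pseudoautosomal region, and there both sexes have 2 matching copies of each site. Past the edge of that region the Y no longer recombines along most of its length and has diverged from the X or lost sequence, by steps that are called strata where they happened at different times. Counts at a site depend on how many matching copies a fish has as well as on how open each copy is.

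The assay was ATAC-seq: the transposase Tn5 cuts DNA where chromatin is open and attaches sequencing adapters to it. The fish were juveniles 6 to 8 months old, offspring of wild-caught Putah Creek fathers in a design of related sibships. The groups were father-reared males (8 fish), orphaned males (7), father-reared females (8) and orphaned females (8), with 1 library per fish. Father-reared fish (Day 10) were raised by their father, and orphaned fish (Day 0) were reared by hand. Fish of all 4 groups met a moving model sculpin, a predator, in an open arena, and the brain was taken 60 minutes later, so no group went without the simulated attack. One side of each brain was used, the left in 13 fish and the right in 18, and sex came from a DNA marker. Leading numbers shared by fish identifiers were read as families, an inference, which gave 16 families, 15 of them with a brother and a sister.

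Totals ran from 2857578 to 10540612 counts per library, and the 369 peaks together took 11020 to 39569 of them. The median peak of the interval had 21 to 76 counts in a library. groupXIX as a whole took 3.4 to 3.66% of counts in males and 4.39 to 4.53% in females, and the sexes did not overlap, which fits the sex labels of all 31 libraries. Markers of brain cell types were not checked, because the build of the peak positions is not given and no peak was assigned to a gene. In bulk tissue, fewer cells of a type and less accessible DNA per cell cannot be told apart, and at X-linked sites neither can fewer matching copies in males and less accessible DNA per copy.

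The male to female ratio did not fall smoothly across the interval. It stayed near 1 for the first 2 windows of 250 kb. Then, over more than a megabase, peaks with greatly reduced male counts lay among peaks with slightly lower or near-equal male counts. Only the last stretch was reduced almost throughout. Peaks are called reduced here where log2 male minus female was under -0.5, intermediate from -0.5 to -0.25, and kept above -0.25. Of the 356 peaks, 55 were reduced and 54 intermediate, 236 lay within 0.25 of 0 and 11 lay above 0.25. The edgeR fit across all peaks called 73 of the 356 lower in males at an adjusted p under 0.05, where 2.08% of all 100808 peaks tested were called lower. It called 3 higher in males, where 0.239% of all peaks were. Since sex chose the interval, nothing is read from these shares.

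**Figure D1:**
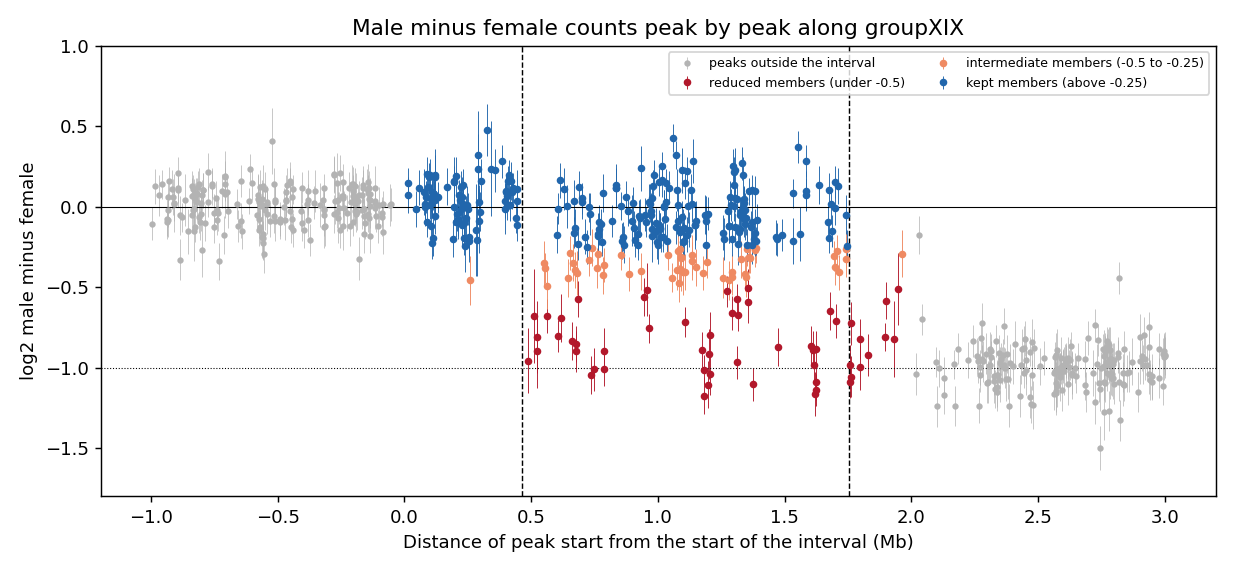
Log2 male minus female of each tested peak (points, with bars of 1 SE) against the distance of its start from the start of the interval in Mb, with peaks up to 1 Mb outside it in grey and dashed lines at the 2 steps described in the text. Red reduced peaks begin at the first dashed line and lie among intermediate and blue kept peaks until the second, after which 11 of 12 peaks are reduced.

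A single position split the log2 values of the 356 peaks into 2 means with the least squared error between the peaks starting at 2445452 and 2486541. The 85 peaks before it had a median log2 of 0.04 and the 271 after it a median of -0.19. The step accounted for 0.1395 of the variance of these values, so most of the spread lay among peaks on the same side of it. None of the 85 peaks before it was reduced and 1 was intermediate, while 55 of the 271 after it were reduced (20.3%). A second step, sought within those 271, fell between 3747626 and 3757893. Between the 2 steps 44 of 259 peaks were reduced (17.0%), 52 were intermediate, 155 lay within 0.25 of 0 and 8 above. The median log2 of these 259 peaks was -0.17, so the lower male counts were not limited to the reduced peaks. After the second step 11 of 12 were reduced (91.7%). With both limits of the interval widened, over peaks from 1 to 5 Mb, a single step fell at 3757893 instead. The mean log2 was -0.10 before it and -0.98 after it, and it took 0.7033 of the variance. In that wider stretch 195 peaks lay after this position, where 12 did within the interval. The place called the edge therefore depends on the stretch examined: the first reduced peaks and the point where nearly all peaks are reduced lie more than a megabase apart.

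The neighbouring stretches stood at either end of this range. From 0 to 2 Mb, 0 of 426 tested peaks were reduced and 7 were intermediate. From 4 to 6 Mb, 393 of 397 were reduced (99.0%), with a median log2 of -0.98. The 2 peaks just outside the lower limit, at 1945772 and 1942932, both had a log2 of 0.01. The 2 just inside it had 0.14 at 2015050 and 0.07 at 2016463. The 2 just inside the upper limit were 3964363, with a log2 of -0.29 (3.10 ± 0.687 CPM in males and 3.75 ± 0.947 in females), and 3968422, which was too low to test (0.736 ± 0.479 CPM in males and 1.20 ± 0.479 in females). Just outside it, 4016706 had a log2 of -1.04 and 4028677 one of -0.18, so kept or nearly kept peaks occur on both sides of the 4 Mb limit. All these means are ± SD over 15 males and 16 females.

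Each fish was also scored by its counts in windows of 250 kb, scaled to its counts off groupXIX and divided by the female mean. In the window from 2.00 to 2.25 Mb males had a ratio of 1.014 ± 0.046 (SD, n = 15). From 2.25 to 2.50 Mb they had 1.017 ± 0.145, and the spread was as wide among females, with an SD of 0.125. Both windows were at parity, the second with a far wider spread between fish than any other of the 8. The ratio was 0.766 ± 0.0749 from 2.50 to 2.75 Mb, lower than in each of the next 4 windows. It was 0.897 ± 0.0527 from 2.75 to 3.00 Mb, 0.920 ± 0.0448 from 3.00 to 3.25 Mb and 0.882 ± 0.0513 from 3.25 to 3.50 Mb. The change with position was thus not in one direction. It was 0.818 ± 0.0383 from 3.50 to 3.75 Mb and 0.554 ± 0.0393 from 3.75 to 4.00 Mb, close to the 0.513 ± 0.0123 of the stretch from 4 to 6 Mb. Only in that last window of the 8 did the highest male, at 0.620, lie below the lowest female, at 0.836.

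**Figure D2:**
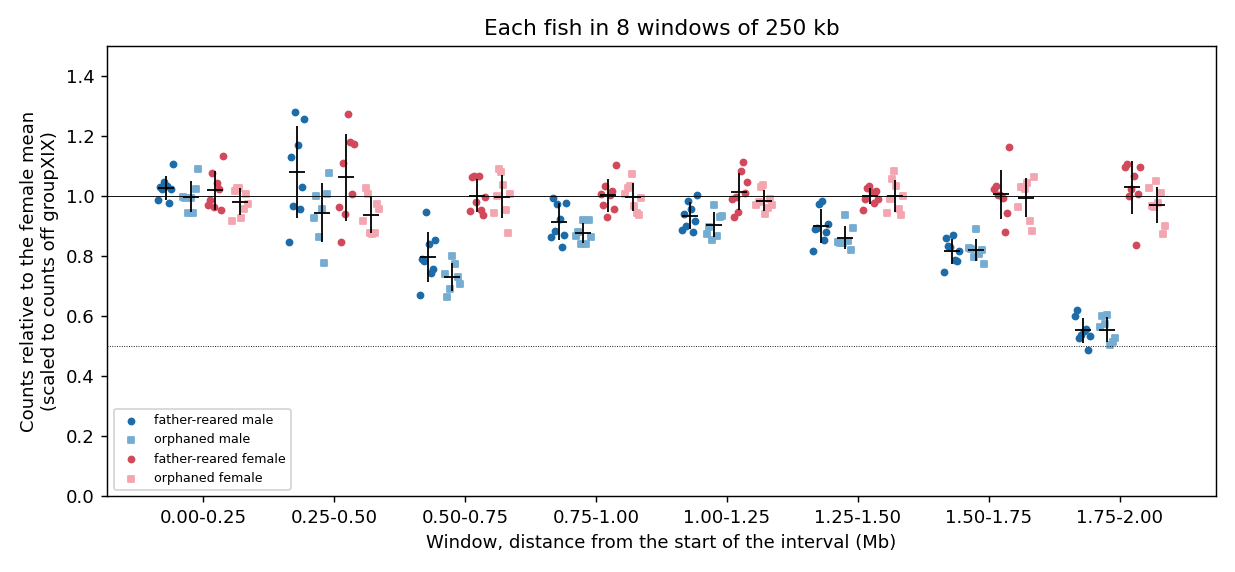
Counts of each fish in 8 windows of 250 kb, scaled to its counts off groupXIX and divided by the female mean; points are fish, bars the mean and SD of each group, and distances run from the start of the interval in Mb. The mean of males is near 1 in the first 2 windows and 0.766 in the third. It lies between 0.818 and 0.920 in the next 4 and reaches 0.554 in the last. Males and females overlap in every window but the last.

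The share of reduced peaks followed the same uneven course. It was 0 of 54 from 2.00 to 2.25 Mb, 1 of 32 from 2.25 to 2.50 Mb and 12 of 38 from 2.50 to 2.75 Mb (31.6%). It was 5 of 53 from 2.75 to 3.00 Mb, 8 of 69 from 3.00 to 3.25 Mb and 9 of 65 from 3.25 to 3.50 Mb. These 3 windows in the middle of the interval had the lowest shares past the first step. From 3.50 to 3.75 Mb it was 9 of 33 (27.3%), and from 3.75 to 4.00 Mb 11 of 12. Peaks were also sparse there: the last window held 17 peaks and the one before it 33, where windows of this size on the linkage groups had a median of 58 and a 10th percentile of 32.

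Summed over the whole interval, a male had 0.906 ± 0.0527 of the female mean (SD, n = 15), with a lowest, median and highest of 0.838, 0.898 and 1.00. Females ran from 0.944 over a median of 0.984 to 1.081, so the sums of males and females overlapped. Brothers lay below their sisters in 14 of 15 families, at 0.909 ± 0.0569 of the sister. Past the first step, which was placed by the sex difference in these same fish, the ratio was 0.864 ± 0.0432. All 15 brothers lay below their sisters there, as that placing makes likely. Within candidate batches, which are stretches of library numbers, the ratio over the interval was 0.889 (6 males and 5 females), 0.931 (4 and 6) and 0.907 (5 and 5). It was 0.927 among left brains (5 males and 8 females) and 0.890 among right brains (10 and 8).

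The 55 reduced peaks summed to 0.528 in the lowest male, 0.558 in the median and 0.621 in the highest, against 0.879 to 1.101 in females. The groups did not overlap, as the choice of these peaks by sex makes likely. The 236 peaks within 0.25 of 0 summed to 0.90, 0.977 and 1.091 in the lowest, median and highest male. Of these 236, 81 lay before the first step. Reduced peaks had a median of 4.34 CPM in males and 8.23 CPM in females, and peaks within 0.25 of 0 a median of 7.76 CPM in males and 7.81 CPM in females. In females both kinds were therefore of like strength. Past the first step, 28.6% of the 21 peaks under 5 CPM in females were reduced and 17.9% of the 173 from 5 to 10 CPM. It was 25.0% of the 56 from 10 to 20 CPM and 19.0% of the 21 over 20 CPM. Reduction was thus found at every strength. The median log2 was -0.16, -0.20, -0.19 and 0.01 in the same order. The typical peak over 20 CPM was therefore not lower in males, and a relation to strength was not tested. At 9 reduced peaks every male lay below every female. The same held at 120 of 397 tested peaks from 4 to 6 Mb and at 0 of 426 from 0 to 2 Mb. It was not counted over all peaks, and nothing is read from the 9.

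The 5 peaks with the lowest male to female values all lay between the 2 steps, past 3.1 Mb. The lowest was groupXIX 3181251 to 3181651, with 2.14, 3.62 and 6.46 CPM in the lowest, median and highest male, against 6.68, 8.64 and 10.1 CPM in females (log2 -1.18, SE 0.11). Peak 3622185 had 2.58, 3.67 and 5.32 CPM in males and 6.98, 8.58 and 10.6 CPM in females (log2 -1.14, SE 0.10). Peak 3376090 had 3.67, 5.38 and 7.49 CPM in males and 8.29, 11.0 and 15.8 CPM in females (log2 -1.10, SE 0.10). At these 3 sites the highest male lay under the lowest female. Peak 3621442 had 1.18, 2.40 and 3.44 CPM in males and 2.92, 5.18 and 7.39 CPM in females (log2 -1.16, SE 0.14). Peak 3198691 had 1.41, 2.94 and 4.36 CPM in males and 4.17, 6.12 and 10.9 CPM in females (log2 -1.11, SE 0.15). At these 2 the sexes overlapped only at the edge of their ranges.

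Reduced peaks were partly clustered and partly alone. Along the row of tested peaks the 55 formed 27 uninterrupted runs, of which 17 were a single peak, 6 a pair and 4 longer. The run at the first step holds 4 peaks, from 2486541 to 2524743, and its sum was 0.199, 0.508 and 1.16 of the female mean in the lowest, median and highest male, against 0.403, 0.896 and 1.73 in females. Males and females overlapped widely there. A run of 4 peaks from 3198691 to 3205990 had 0.275, 0.546 and 0.709 in males and 0.666, 0.934 and 1.35 in females. The 7 peaks of the run from 3604231 to 3625260 had 0.454, 0.50 and 0.552 in males and 0.851, 1.00 and 1.15 in females, the narrowest spread between males of the 4 runs. The last run begins at the second step and holds 11 peaks from 3757893 to 3947632, with 0.472, 0.541 and 0.607 in males and 0.835, 1.01 and 1.11 in females. In both of these runs males and females were fully apart.

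All 7 peaks of the run from 3604231 to 3625260, which covers 21.0 kb, had log2 values between -1.16 and -0.87, although their median in females ranged from 5.18 to 12.7 CPM. The strongest, 3624860, had 3.67, 7.28 and 9.69 CPM in males and 8.71, 12.7 and 18.2 CPM in females. The next peak, at 3637106, was kept, with a log2 of 0.14, as was the one before the run, 3583969, with 0.10. The run is thus bounded on both sides by sites with equal counts.

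Changes between kept and reduced could be abrupt. Of 355 adjacent pairs of tested peaks, 21 differed by 0.75 or more in log2 male minus female, and 24 of the 55 reduced peaks had a kept peak next to them. The pairs given here were chosen after their values were seen. Peak 3196992, among the 3 strongest of the interval, had 41.0, 60.9 and 78.3 CPM in males and 40.0, 60.6 and 78.9 CPM in females (log2 -0.04, SE 0.10). Peak 3198691, already given as reduced, starts 1699 bases further on. The closest such pair was 1062 bases apart: 2964385 was reduced, with a median of 12.9 CPM in males and 21.7 CPM in females (log2 -0.76, SE 0.09), and 2965447 was kept, with 5.95 and 5.93 CPM (log2 0.03, SE 0.11).

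In 2 further pairs the strengths were more alike. Peak 3373302 had 5.40, 7.36 and 10.8 CPM in males and 4.81, 7.33 and 9.91 CPM in females (log2 0.10, SE 0.10), and it starts 2788 bases before the reduced peak 3376090. Peak 2733861 had 3.54, 5.14 and 11.5 CPM in males and 2.67, 5.51 and 9.19 CPM in females (log2 -0.05, SE 0.13). Its neighbour 2736701, 2840 bases on, had 3.15, 4.80 and 9.33 CPM in males and 7.00, 9.99 and 16.0 CPM in females (log2 -1.05, SE 0.12). In both pairs the males and females of the kept site shared most of 1 range. At 3376090 every male lay under every female, and at 2736701 the ranges overlapped only from 7.00 to 9.33 CPM.

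**Figure D3:**
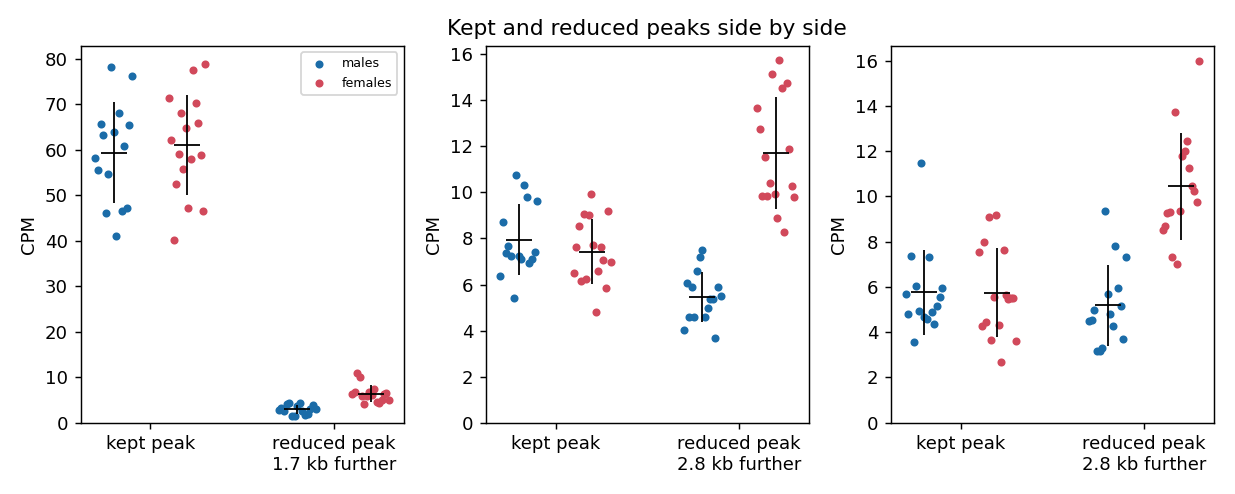
CPM of each fish (points; bars are mean and SD) in males and females at 3 pairs of adjacent peaks, each a kept peak followed by a reduced one; the vertical scales differ between panels. Peaks 3196992 and 3198691 are on the left, 3373302 and 3376090 in the middle and 2733861 and 2736701 on the right, and the sexes overlap at each kept peak, while at each reduced one the males lie lower, with little or no overlap.

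The other 2 of the 3 strongest peaks had equal counts in the sexes as well. Peak 2903972 had 44.8, 69.7 and 92.9 CPM in males and 45.6, 64.1 and 91.1 CPM in females (log2 0.02, SE 0.10). Peak 2231261, before the first step, had 39.8, 59.9 and 83.7 CPM in males and 37.8, 56.0 and 84.5 CPM in females (log2 0.13, SE 0.10). The sexes shared nearly the whole range at each.

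A few peaks ran the other way. Peak 3058233 had 15.0, 17.8 and 22.5 CPM in males and 9.39, 13.3 and 20.2 CPM in females (log2 0.42, SE 0.09). Peak 3553585 had 5.22, 8.01 and 9.97 CPM in males and 4.27, 5.91 and 8.58 CPM in females (log2 0.37, SE 0.10). Peak 3073125 had 7.52, 9.05 and 11.6 CPM in males and 5.40, 7.08 and 9.87 CPM in females (log2 0.32, SE 0.09). These 3 are the peaks called higher in males, and the sexes overlapped at each. The calls of the last 2 were weak: that of 3553585 ended without father-reared female replicate 1, father-reared male replicate 2, 5 or 8, or orphaned male replicate 6 (log2 0.34 to 0.36), and that of 3073125 without father-reared female replicate 1 or 8, or orphaned male replicate 2, 4 or 6 (log2 0.30). Without orphaned male replicate 6, or with brain side as a covariate, the count of peaks higher in males was 1.

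The remaining peaks, a pair, were among the 5 with the highest male to female values but were not called. Peak 2325483 had 2.98, 5.38 and 9.45 CPM in males and 1.46, 3.79 and 6.69 CPM in females (log2 0.48, SE 0.16). It was called only without father-reared female replicate 1 (log2 0.59) or with family as a fixed block (log2 0.56). Peak 2291124, with a log2 of 0.32 (SE 0.27), is one of the most variable sites of the interval.

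Variable peaks were frequent just before the first step, in the run of reduced peaks that begins at it, and among the few peaks after the second. edgeR's peak-specific dispersion, the spread between fish of one group beyond counting error, put 15.7% of the 356 peaks among the most variable 10% of all peaks tested. The share was 28.2% for the 85 peaks before the first step and 56.2% (18 of 32) in the window from 2.25 to 2.50 Mb. Between the steps it was 10.8%, and after the second step 4 of the 12 peaks (33.3%) were among them. It was 16.7% from 0 to 2 Mb, 8.02% from 4 to 12 Mb and 9.24% on the other linkage groups. Of the 23 peaks in the most variable 2%, 16 started between 2.2 and 2.7 Mb, where 81 were tested. All 4 peaks of the run at the first step, 2486541, 2512918, 2522038 and 2524067, were among the 23. Their means were 1.56 to 4.45 CPM, where the median of the 356 peaks was 7.2 CPM. The first reduced peaks were thus weak and variable sites. These shares are descriptions without a test, and no value here ties the spread to sex.

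The 5 neighbouring peaks from 2284140 to 2293754 show this spread, and 4 of them were among the 5 most variable. Peak 2291124 had 1.97, 15.2 and 44.2 CPM in males and 2.94, 14.4 and 30.4 CPM in females. At this site 4 males and 5 females had 4.97 CPM or less, and the other 22 fish had 11.6 CPM or more. Peak 2284140 had 0, 4.16 and 7.54 CPM in males and 0, 3.71 and 10.8 CPM in females, with 1 male and 1 female at 0. Peak 2285771 had 0.473, 9.04 and 20.8 CPM in males and 2.88, 10.7 and 17.4 CPM in females. Peak 2289322 had 1.18, 6.36 and 14.7 CPM in males and 0.18, 5.32 and 13.5 CPM in females. In all 4 both sexes spread widely and overlapped, although the extremes differed, with the highest value in a male at 3 of them and in a female at 2284140. The fifth of the most variable peaks, 2341006, had 0.775, 2.59 and 4.41 CPM in males and 0, 1.51 and 4.56 CPM in females.

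**Figure D4:**
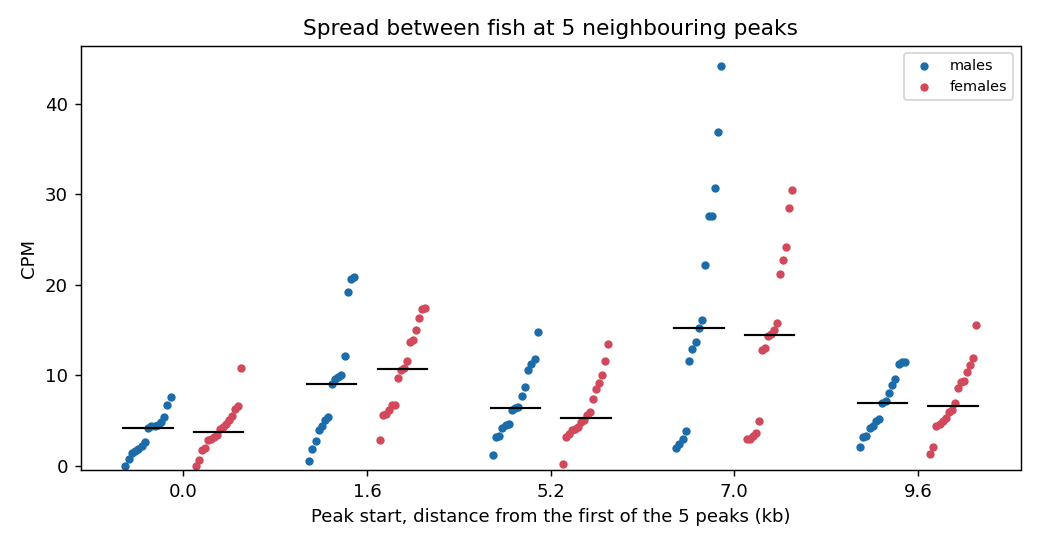
CPM of each fish at the 5 neighbouring peaks from 2284140 to 2293754, males and females apart, sorted by value within each group, with the median as a line; the horizontal axis gives each peak's distance from the first in kb. At the fourth peak, 2291124, 9 fish of both sexes lie at 4.97 CPM or less, apart from the others, which reach 44.2 CPM.

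Paternal care was then compared, a contrast the choice of the interval did not use. Care was given to whole families, so a brother and sister are not independent replicates of it. Families may also be related to each other, which is not listed and which the fits did not take into account. No peak passed edgeR's test for care in all fish, in males, in females, for the difference in care effect between males and females, or for brain side; the lowest adjusted p among the 356 was 0.686, 0.922, 0.919, 1 and 0.989 in these 5 comparisons. Of all 100808 peaks tested, edgeR likewise called 0 in each of the 5, so the lack of calls was not particular to the interval. DESeq2 also called 0 in each. For care in all fish, 42 of the 356 peaks (11.8%) had a raw p under 0.05, where 7.24% of all peaks did, 35 of them higher and 7 lower in father-reared fish. The median log2 father-reared minus orphaned of the 356 peaks was 0.05, where that of all peaks was -1.5e-05. Sums from 0 to 2 Mb, outside the interval, leaned the same way. There father-reared males had 1.038 ± 0.0435 of the female mean and orphaned males 1.003 ± 0.0276 (SD). Father-reared females had 1.006 ± 0.0313 and orphaned females 0.994 ± 0.0282.

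In males 29 of the 356 peaks (8.15%) had a raw p under 0.05, 24 of them higher and 5 lower in father-reared males, where 5.31% of all peaks did. In females the count was 17 (4.78%), 10 higher and 7 lower, where 4.63% of all peaks did. The median log2 was 0.07 in males and 0.03 in females. For the difference between the sexes, 17 peaks (4.78%) had a raw p under 0.05, where 3.49% of all peaks did, and 0 passed. Neighbouring peaks are not independent, so these shares carry no test of their own.

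The peaks with the lowest raw p for care lay on both sides of the first step. Peak 2254198 had 25.6, 34.9 and 64.6 CPM in father-reared fish and 16.7, 26.2 and 41.7 CPM in orphaned fish (log2 0.43, SE 0.12, edgeR adjusted p 0.69). Peak 2733861 had 3.60, 6.01 and 11.5 CPM in father-reared fish and 2.67, 4.58 and 9.19 CPM in orphaned fish (log2 0.45, SE 0.13). Peak 3390107 had 8.90, 11.8 and 17.7 CPM in father-reared fish and 7.44, 9.63 and 14.4 CPM in orphaned fish (log2 0.29, SE 0.09). The care groups overlapped at all 3.

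Among males the lowest raw p belonged to 2524067, the last peak of the run at the first step and the only one of the 369 wider than 400 bases. It had 0.735, 4.11 and 5.37 CPM in father-reared males and 0.595, 1.26 and 2.84 CPM in orphaned males (log2 1.40, SE 0.36, edgeR adjusted p 0.92). Females had 2.56, 4.84 and 7.82 CPM when father-reared and 2.27, 3.22 and 7.81 CPM when orphaned. The 2 groups of males overlapped, and the median of father-reared males lay within the range of both groups of females. Peak 2729445 had 8.95, 11.0 and 13.3 CPM in father-reared males and 5.91, 8.01 and 10.1 CPM in orphaned males (log2 0.48, SE 0.14). Peak 2444058 had 7.35, 9.85 and 13.0 CPM in father-reared males and 4.70, 6.75 and 10.4 CPM in orphaned males (log2 0.48, SE 0.14). None of these passed the threshold.

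Among females the lowest raw p belonged to 2254198, with 25.6, 37.4 and 64.6 CPM in father-reared females and 22.0, 25.8 and 41.7 CPM in orphaned females (log2 0.51, SE 0.17). Peak 3204446 had 4.79, 6.85 and 9.62 CPM in father-reared females and 5.68, 9.57 and 12.5 CPM in orphaned females (log2 -0.47, SE 0.16). Peak 3190610 had 2.93, 4.17 and 5.54 CPM in father-reared females and 3.86, 6.17 and 6.77 CPM in orphaned females (log2 -0.46, SE 0.16). The groups overlapped at each.

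For the difference in care effect between the sexes, the lowest raw p belonged to 2640302, with a difference of 0.84 (SE 0.24). Its edgeR adjusted p was 1. It had 4.16, 6.75 and 8.62 CPM in father-reared males and 3.15, 4.80 and 5.42 CPM in orphaned males, against 3.21, 4.97 and 6.31 CPM in father-reared females and 3.95, 5.58 and 7.47 CPM in orphaned females. At 3741148 the difference was -0.72 (SE 0.21) and at 2729445 it was 0.50 (SE 0.19), and neither passed.

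**Figure D5:**
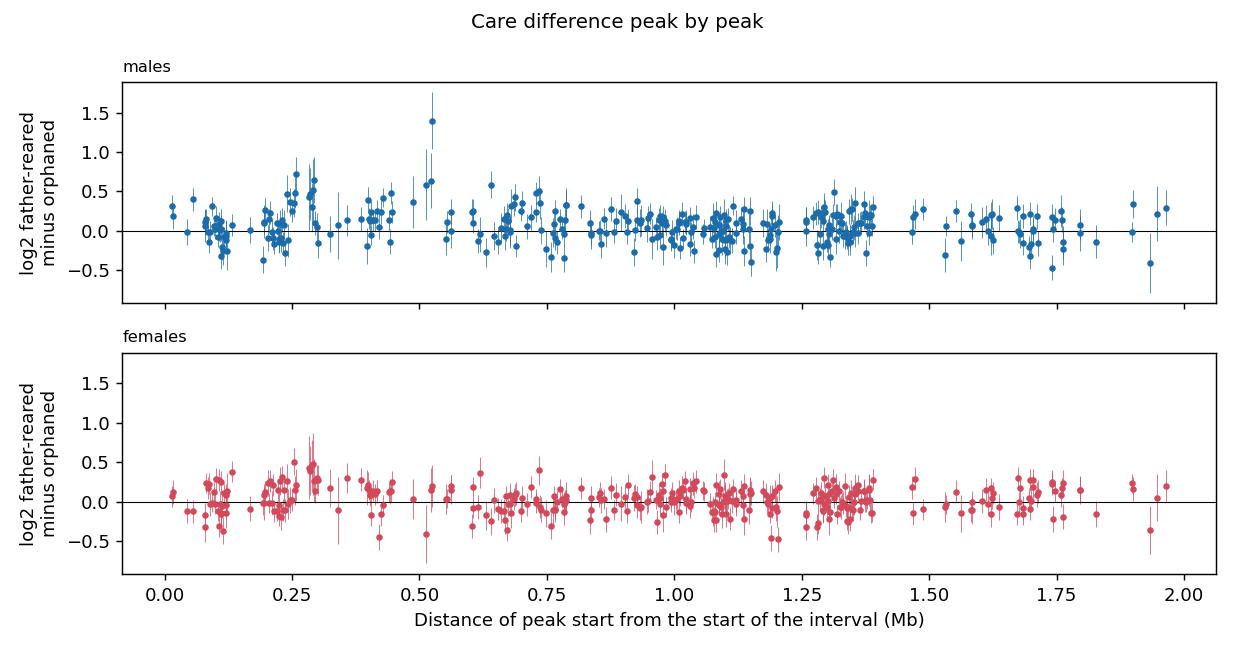
Log2 father-reared minus orphaned of each of the 356 tested peaks (points, with bars of 1 SE) in males above and females below, against the distance of the peak start from the start of the interval in Mb. Of the 356 values 61.2% lie above 0 in males and 56.5% in females, where 50.3% and 50.6% of all peaks tested do. None passed the test, and the highest male point is peak 2524067 at 1.40.

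Sums over windows of 250 kb gave more counts per test, with each scaffold outside the linkage groups taken whole as a single window. Of 1789 such windows of the whole table, edgeR called 0 for care in all fish, in males, in females or for their difference. The lowest adjusted p of the 8 windows of the interval was 0.823, 0.676, 0.999 and 0.999. In these 4 comparisons 1, 2, 1 and 0 of the 8 windows had a raw p under 0.05, where 4.86%, 6.48%, 1.84% and 2.85% of all 1789 windows did. In the variable window from 2.25 to 2.50 Mb, the ratio to the female mean was 1.08 ± 0.154 in father-reared males and 0.944 ± 0.099 in orphaned males, and 1.062 ± 0.145 in father-reared females and 0.938 ± 0.0614 in orphaned females. In the window from 2.50 to 2.75 Mb it was 0.798 ± 0.0827 in father-reared males and 0.730 ± 0.0469 in orphaned males, with 1.002 ± 0.0558 in father-reared females and 0.998 ± 0.0721 in orphaned females. In each of these pairs the care groups overlapped (SD over 7 or 8 fish). In the last window, where males had the lowest ratio, father-reared males had 0.552 ± 0.0413 and orphaned males 0.555 ± 0.0402.

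Reduced peaks were also counted within each care group. The care groups share no fish, but fish of both went into the choice of the interval by sex. The counts are therefore a description and no independent support for the pattern. With the same limit of -0.5, 58 peaks were reduced in father-reared fish and 60 in orphaned fish. The 46 reduced in both were 79.3% of those of father-reared fish and 76.7% of those of orphaned fish. Over the interval the sum in males was 0.927 ± 0.0582 of the female mean in father-reared males and 0.881 ± 0.0351 in orphaned males, against 1.015 ± 0.0458 in father-reared females and 0.985 ± 0.036 in orphaned females. Within each care group, a male had 0.913 of the females of his own group when father-reared and 0.895 when orphaned.

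For brain side, 13 of the 356 peaks (3.65%) had a raw p under 0.05, where 4.06% of all peaks did. Peak 2243209 had 3.21, 6.67 and 8.86 CPM in left brains and 5.21, 8.37 and 15.4 CPM in right brains (log2 -0.50, SE 0.13, edgeR adjusted p 0.99). Peak 3761953 had 5.87, 8.55 and 16.9 CPM in left brains and 1.96, 6.54 and 10.4 CPM in right brains (log2 0.41, SE 0.13). Left and right overlapped at both, and left brains held 5 males and 8 females where right brains held 10 males and 8 females, which the fit took into account. Peak 3376090, the third by raw p, had a log2 of 0.30 (SE 0.10).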

How the data were processed

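ATAC-seq libraries of 31 juvenile brains were used, 1 library per fish. The authors deposited a table of raw, unnormalized counts of reads at each peak in each library; no column belonged to another sample. Per the submitters' processing notes the tools included DiffBind 3.14.0, MACS2 2.2.5, Bowtie2 2.3.5.1, Picard 2.10.1, SAMtools 1.9 and FastQC 0.11.8; what each was used for is not stated. The genome build and the treatment of duplicates, of reads that align to both X and Y, and of the transposase offset are also not given there, so peaks carry the positions of the deposited table and no sequence or gene. Reads copied by PCR carry no molecular identifier and may stem from 1 molecule.

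Peaks were filtered with filterByExpr of edgeR 4.0.16 (R 4.3.3; minimum count 10), which kept 100808 of 102149. All peaks were fitted together, with TMM scaling and quasi-likelihood F tests, and called at a p under 0.05 after Benjamini-Hochberg adjustment over all of them. One model held care and sex, one of 4 group means gave care within each sex and the difference, and another added side. CPM uses TMM-scaled library sizes. The ratios to the female mean use raw counts off groupXIX, without TMM scaling. Whether their spread between fish follows the TMM factors of the libraries was not tested. Counts were also summed over windows of 250 kb on the linkage groups and over each whole scaffold outside them, where these held at least 5 peaks. The sums were fitted with the same scaling and tests but without the filter on low counts. Family was not a block in these fits. It was taken from identifiers, and the consensus correlation of siblings (limma 3.58.1) was 0.042. Libraries were made in batches whose membership is not given, so 3 stretches of library numbers stood in for them.

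The members, limits and named peaks were chosen with earlier results of these data known. Named peaks were the 5 lowest and 5 highest by sex (mean of at least 1 CPM), the 3 lowest raw p of each other contrast, the 3 strongest, the 5 most variable, and 2 on each side of each limit. Others were chosen after their values were seen. Alternatives were DESeq2 1.42.0, RLE size factors, TMM off groupXIX, a filter at a mean of 2 CPM or none, side, library stretch or family as terms, other window sizes and thresholds, and each library left out. The same settings for the count of reduced peaks, and its limits of -0.4 and -0.6, were added after seeing the data.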

Additional observations from a re-analysis of the deposited data

Results flagged for a closer look

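Among 168 groups of 7 or 8 fish examined for a lone high or low fish, 7 had one past Dixon's limit, and chance gives about 1 in 20. In the window from 3.75 to 4.00 Mb, father-reared female replicate 6 had a ratio of 0.836, where the other father-reared females had 0.999 to 1.11. At peak 2016463 orphaned male replicate 6 had 9.33 CPM, where the other orphaned males had 5.17 to 6.71. Orphaned female replicate 7 had 30.4 CPM at the variable peak 2291124, where the others of its group had 2.94 to 15.8. Peak 2733861 had a lone high fish in 2 groups: father-reared male replicate 4 at 11.5 CPM (others 4.89 to 7.36) and orphaned female replicate 4 at 9.19 CPM (others 2.67 to 5.53). At the reduced peak 3198691, father-reared female replicate 2 had 10.9 CPM, where the others had 4.31 to 6.30. At 3390107, father-reared male replicate 8 had 17.7 CPM, where the others had 9.94 to 12.6.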

How the results depend on the processing

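The count of peaks lower in males was 66 to 75 with each library left out, and it was 73 or 74 with a replicate block for family, fixed or random, so pairing by family did not change it. The count higher in males was 3, but 1 with brain side as a covariate, 1 to 3 with each library left out, and 4 with the fixed family block. Reduced peaks numbered 52 to 61 over 40 settings, and 52 or more of the 55 were shared in each; the limit of -0.4 gave 74 and that of -0.6 gave 46. The first reduced peak was 2486541 or, in a few settings, 2258546. The step lay at 2486541 with each library left out but at 3757893 for peaks from 1 to 5 Mb. The ratio over the interval was 0.899 to 0.910 with each library left out. The counts for care and side were 0 under every alternative run for them. Of these counts, the fixed family block was run only for the difference in care effect between the sexes. The random block was run for all care comparisons, and neither was run for side. Of 1382 alternative values of the named peaks, 1368 kept direction and call, 12 lost the call (3553585 and 3073125) and 2 gained it (2325483). The median peak had 21 to 76 counts in a library, and the smallest care effect that could be called at this depth was not determined.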
